A study of Homo sapiens with 4 samples.

Results

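The cytosolic ribosomal protein genes were followed through the H3.3 chromatin immunoprecipitation data (ChIP-seq). They were taken from the GENCODE release 44 protein-coding genes by symbol: RPL or RPS with a number and at most 1 letter A or X, together with RPLP0, RPLP1, RPLP2 and RPSA. This gave 77 of 20033 protein-coding genes, 46 for the large (60S) subunit and 31 for the small (40S) subunit. The library titles name the cells MRC5_WT and the labels give the line as MRC5, which the study calls MRC5_VA, a line of human fetal lung fibroblasts immortalised with SV40. Untreated cells were compared with cells harvested 3 h after 10 J/m2 of UV-C. The DNA of 3 replicates was pooled for each condition, so each condition has 1 H3.3 library and no difference between the conditions has a replicate check. No test between conditions was made, and the question whether UV moves H3.3 at these genes is met here only by setting the lists side by side.

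The ribosomal proteins are needed in equal amounts, and their genes are among the most actively transcribed in growing cells. Many of these genes are short, some carry small nucleolar RNA (snoRNA) genes in their introns, and most start transcription inside a run of pyrimidines, the 5′ terminal oligopyrimidine (TOP) motif, through which mTOR signalling controls translation of the mRNAs. H3.3 is the histone H3 variant that is put into chromatin independently of DNA replication throughout the cell cycle, above all where nucleosomes are displaced by transcription. UV lesions in the template strand block RNA polymerase II, and transcription restarts as the lesions are repaired.

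The authors called peaks in each library and deposited 102949 peaks without UV and 89740 after UV, which made 88822 and 77183 distinct intervals on chromosomes 1 to 22, X and Y. Each peak carries a fold enrichment over the local background and a −log10 q, which measures how far the peak caller placed it above that background. Both depend on read depth, and the lists carry no read numbers, so the depth is unknown and these values were used only within a list. The start (TSS) and end of a gene below are those of its Ensembl canonical transcript unless any annotated start is meant. Of 10 fibroblast marker genes 8 had an interval within 1 kb of a TSS in each library, against 2 of 4 epithelial, 0 of 4 endothelial and 0 of 2 hepatocyte markers in each library. Of 4 blood markers 1 had such an interval without UV and 0 after UV. Among all protein-coding genes the share with such an interval was 48% without UV and 54% after UV. Marker counts this small do not identify the cell type.

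The start sequences of 14 genes are shown because the H3.3 intervals described below lie beside these starts and seldom on them. Each runs from 60 bases before the canonical start to 19 bases after it in hg38, 5′ to 3′ on the coding strand, and the capitals mark the pyrimidine run that holds the start base, or the start base alone where it is a purine. The start base of RPLP2, RPS19, RPL12 and RPS25 lay in an H3.3 interval after UV, that of RPL3 without UV, and that of the other genes in neither list.
RPLP2 (chr11:809907-809986, plus strand): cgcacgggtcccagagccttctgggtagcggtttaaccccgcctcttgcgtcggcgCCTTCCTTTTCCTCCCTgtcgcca
RPS19 (chr19:41860195-41860274, plus strand): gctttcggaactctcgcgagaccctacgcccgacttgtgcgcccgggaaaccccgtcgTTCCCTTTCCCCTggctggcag
RPL12 (chr9:127451387-127451466, minus strand): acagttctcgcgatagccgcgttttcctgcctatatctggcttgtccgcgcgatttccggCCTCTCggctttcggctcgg
RPS25 (chr11:119018324-119018403, minus strand): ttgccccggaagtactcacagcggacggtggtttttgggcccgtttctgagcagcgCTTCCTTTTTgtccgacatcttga
RPL3 (chr22:39319604-39319683, minus strand): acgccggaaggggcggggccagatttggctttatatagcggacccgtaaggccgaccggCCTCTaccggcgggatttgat
RPS2 (chr16:1964807-1964886, minus strand): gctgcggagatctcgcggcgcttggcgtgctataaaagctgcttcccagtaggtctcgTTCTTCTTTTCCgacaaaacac
RPL6 (chr12:112409586-112409665, minus strand): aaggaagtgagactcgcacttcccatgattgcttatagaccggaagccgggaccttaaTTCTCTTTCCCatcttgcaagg
RPL37A (chr2:216498784-216498863, plus strand): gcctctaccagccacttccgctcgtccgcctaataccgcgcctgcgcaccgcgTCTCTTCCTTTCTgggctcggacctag
RPL34 (chr4:108620516-108620595, plus strand): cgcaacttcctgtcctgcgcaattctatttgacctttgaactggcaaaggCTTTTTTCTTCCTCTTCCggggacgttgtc
RPL41 (chr12:56116573-56116652, plus strand): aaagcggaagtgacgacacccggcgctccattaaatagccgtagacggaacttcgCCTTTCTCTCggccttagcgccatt
RPS9 (chr19:54200798-54200877, plus strand): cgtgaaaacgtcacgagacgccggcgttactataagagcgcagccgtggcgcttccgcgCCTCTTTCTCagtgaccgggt
RPS26 (chr12:56041858-56041937, plus strand): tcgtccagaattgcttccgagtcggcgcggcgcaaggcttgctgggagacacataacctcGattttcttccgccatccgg
RPS4X (chrX:72277229-72277308, minus strand): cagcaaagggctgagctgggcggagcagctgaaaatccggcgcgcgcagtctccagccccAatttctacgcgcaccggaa
RPS28 (chr19:8321436-8321515, plus strand): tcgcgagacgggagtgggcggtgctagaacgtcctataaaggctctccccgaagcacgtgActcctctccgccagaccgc

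The pyrimidine start set these genes apart in sequence. The start base was a C followed by 4 further pyrimidines in 58 of 77 ribosomal protein genes (75.3%), in 919 of 20033 protein-coding genes (4.59%) and in 5 of 78 genes for mitochondrial ribosomal proteins. The run that held the start base had a median length of 11 bases in the ribosomal protein genes. In the window from 250 bases before the start to 50 after it, CCGGAAG or its other strand, the core that ETS factors bind, was present in 27 of the 77 genes (35.1%) and in 14.1% of all protein-coding genes. GGGCGG, the core of the Sp1 site, was read on either strand in 59.7% and 61.3%, and TATAAA in 7.79% and 9.71%. ATGGC, part of the YY1 site, was read on either strand in 48.1% and 36.9%. In the mitochondrial ribosomal protein genes CCGGAAG was present in 41.0%, GGGCGG in 60.3%, TATAAA in 5.13% and ATGGC in 75.6%. The higher shares of CCGGAAG and ATGGC were thus not particular to the cytosolic genes. None of these strings contains another, and a match describes letters and not binding. Of the 46 genes with an H3.3 interval within 1 kb of the canonical start after UV, 32 began with the C and 4 pyrimidines, against 26 of the 31 without one.

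Ribosomal protein genes had H3.3 intervals near an annotated start more often than other genes, and nearly the same number had one in each condition. Without UV, 63 of 77 genes had an interval within 1 kb of any annotated TSS (81.8%, exact Clopper-Pearson 95% interval 71.4% to 89.7%), against 48% of all protein-coding genes. After UV, 61 of 77 did (79.2%, 68.5% to 87.6%), against 54% of all protein-coding genes. These intervals, here and below, cover counting error only. The large-subunit genes numbered 39 of 46 without UV and 38 of 46 after UV, and the small-subunit genes 24 of 31 and 23 of 31. In both lists 58 genes had such an interval.

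The canonical start alone gave lower shares. A ribosomal protein gene had a median of 8 annotated starts, against 5 for all protein-coding genes, and many of the intervals lay at starts inside the gene. Within 1 kb of the canonical start, 43 genes had an interval without UV (55.8%), against 38.6% of all protein-coding genes, and 46 after UV (59.7%), against 46.6%. The canonical start base itself was inside an interval in 2 of 77 genes without UV (2.60%, 0.316% to 9.07%), against 17.6% of all protein-coding genes. After UV it was covered in 11 genes (14.3%, 7.35% to 24.1%), against 28.2%. Among genes with an interval within 1 kb of the canonical start, this was 2 of 43 ribosomal protein genes without UV, against 45.5% of protein-coding genes, and 11 of 46 after UV, against 60.5%.

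Both genes covered at the start without UV were of the large subunit, RPL27A and RPL3, the latter a protein that reaches to the peptidyl transferase centre. RPL3 had an interval of 281 bp on its start with a −log10 q of 2.62 without UV and none there after UV. RPL27A was covered in both lists, with a −log10 q at percentile 84.8 of the list without UV and 71.8 of the list after UV. The other 10 genes covered after UV were RPL12, RPL13, RPL8, RPLP1, RPLP2, RPS19, RPS20, RPS25, RPS29 and RPS3. Their strongest summits lay between 110 and 545 bp after the start, except in RPS29, where the summit was at −279 bp. In RPL13 a weaker summit of the same interval lay nearer to the start, at −246 bp. RPLP1 and RPLP2 encode acidic proteins of the lateral stalk that recruits elongation factors, and RPL12 sits at the base of that stalk.

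**Figure D1:**
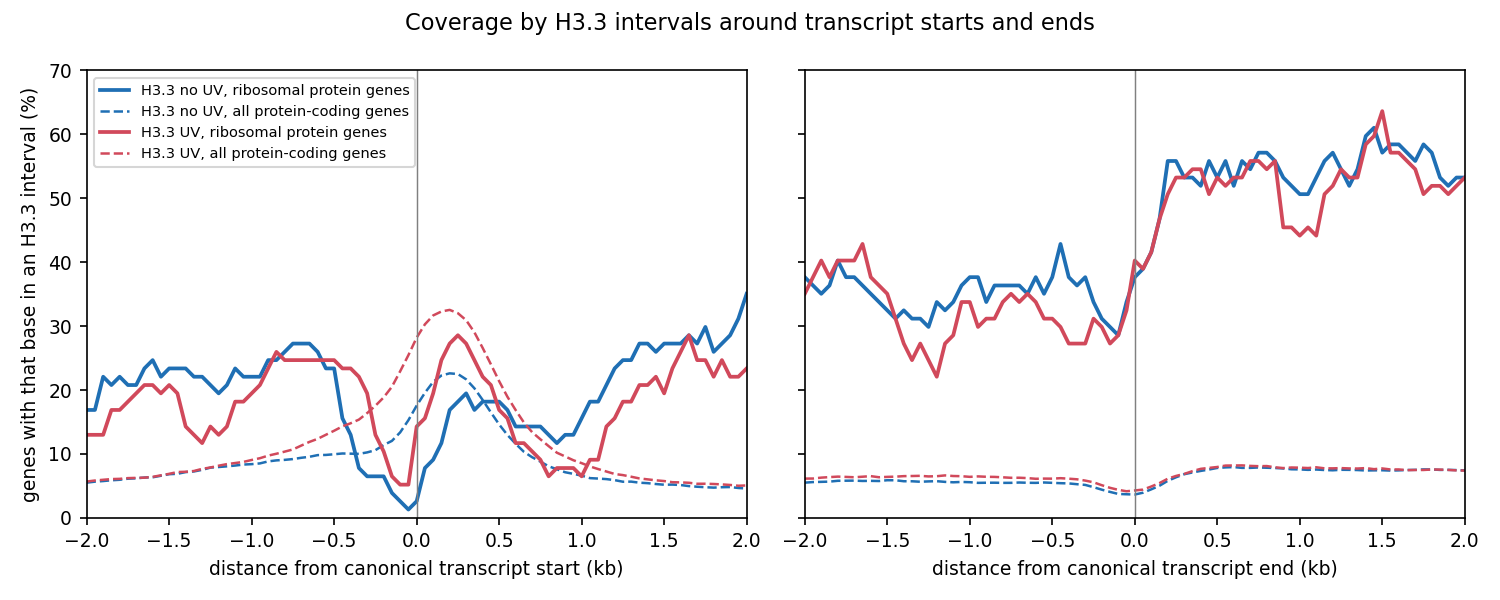
Percentage of genes whose base at each distance (kb) from the canonical start (left) or end (right) lay in an H3.3 interval, without UV (blue) and after UV (red), for the 77 ribosomal protein genes (solid) and all 20033 protein-coding genes (dashed). The solid lines dip to 1 gene and 4 genes of 77 at 50 bp before the start and stand above 50% at 250 bp after the end, where the dashed lines are below 10%.

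The plot of coverage against distance showed a gap at the start in these genes where all genes together had a peak. At 50 bp before the canonical start an interval covered 1 of 77 ribosomal protein genes without UV and 4 after UV (5.20%), against 15.3% and 25.5% of all protein-coding genes. At 750 bp before the start it covered 21 genes (27.3%) and 19 genes (24.7%), against 9.20% and 10.7%. At 250 bp after the start the values were 14 genes (18.2%) and 22 genes (28.6%), against 22.5% and 32.0%. Of the ribosomal protein genes with a summit within 1 kb of the start, 23 of 38 had one before the start without UV and 26 of 44 after UV, against 49.1% and 49.0% of protein-coding genes with a summit there. The same counts of ribosomal protein genes had a summit after the start, against 75.7% and 79.8% of protein-coding genes. The nearest summit lay at a median of +159.5 bp in untreated and +132 bp in irradiated cells. The sign of the first value rested on weak peaks, since it was −325 bp once peaks below a −log10 q of 3 were left out.

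Sets of genes of like size or base composition had higher coverage of the start base. Among the 3039 protein-coding genes from 3710 to 9912 bp long, the range between the quartiles of length of the ribosomal protein genes, the start base was covered in 14.9% without UV and 23.6% after UV, while 1 and 3 of the 39 ribosomal protein genes of that length were covered. Among the 4754 protein-coding genes with 55.7% to 62.0% GC within 500 bp of the start, the corresponding range of GC, the start base was covered in 13.7% and 23.6%, and again in 1 and 3 of 39 ribosomal protein genes. These reference sets include the ribosomal protein genes. The genes for mitochondrial ribosomal proteins, which work in a different ribosome and seldom have a TOP start, were covered in 4 of 78 without UV and 12 of 78 after UV. These counts were near the 2 and 11 of 77 in the cytosolic ribosomal protein genes. Low coverage of the start base was therefore not particular to the cytosolic genes.

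**Figure D2:**
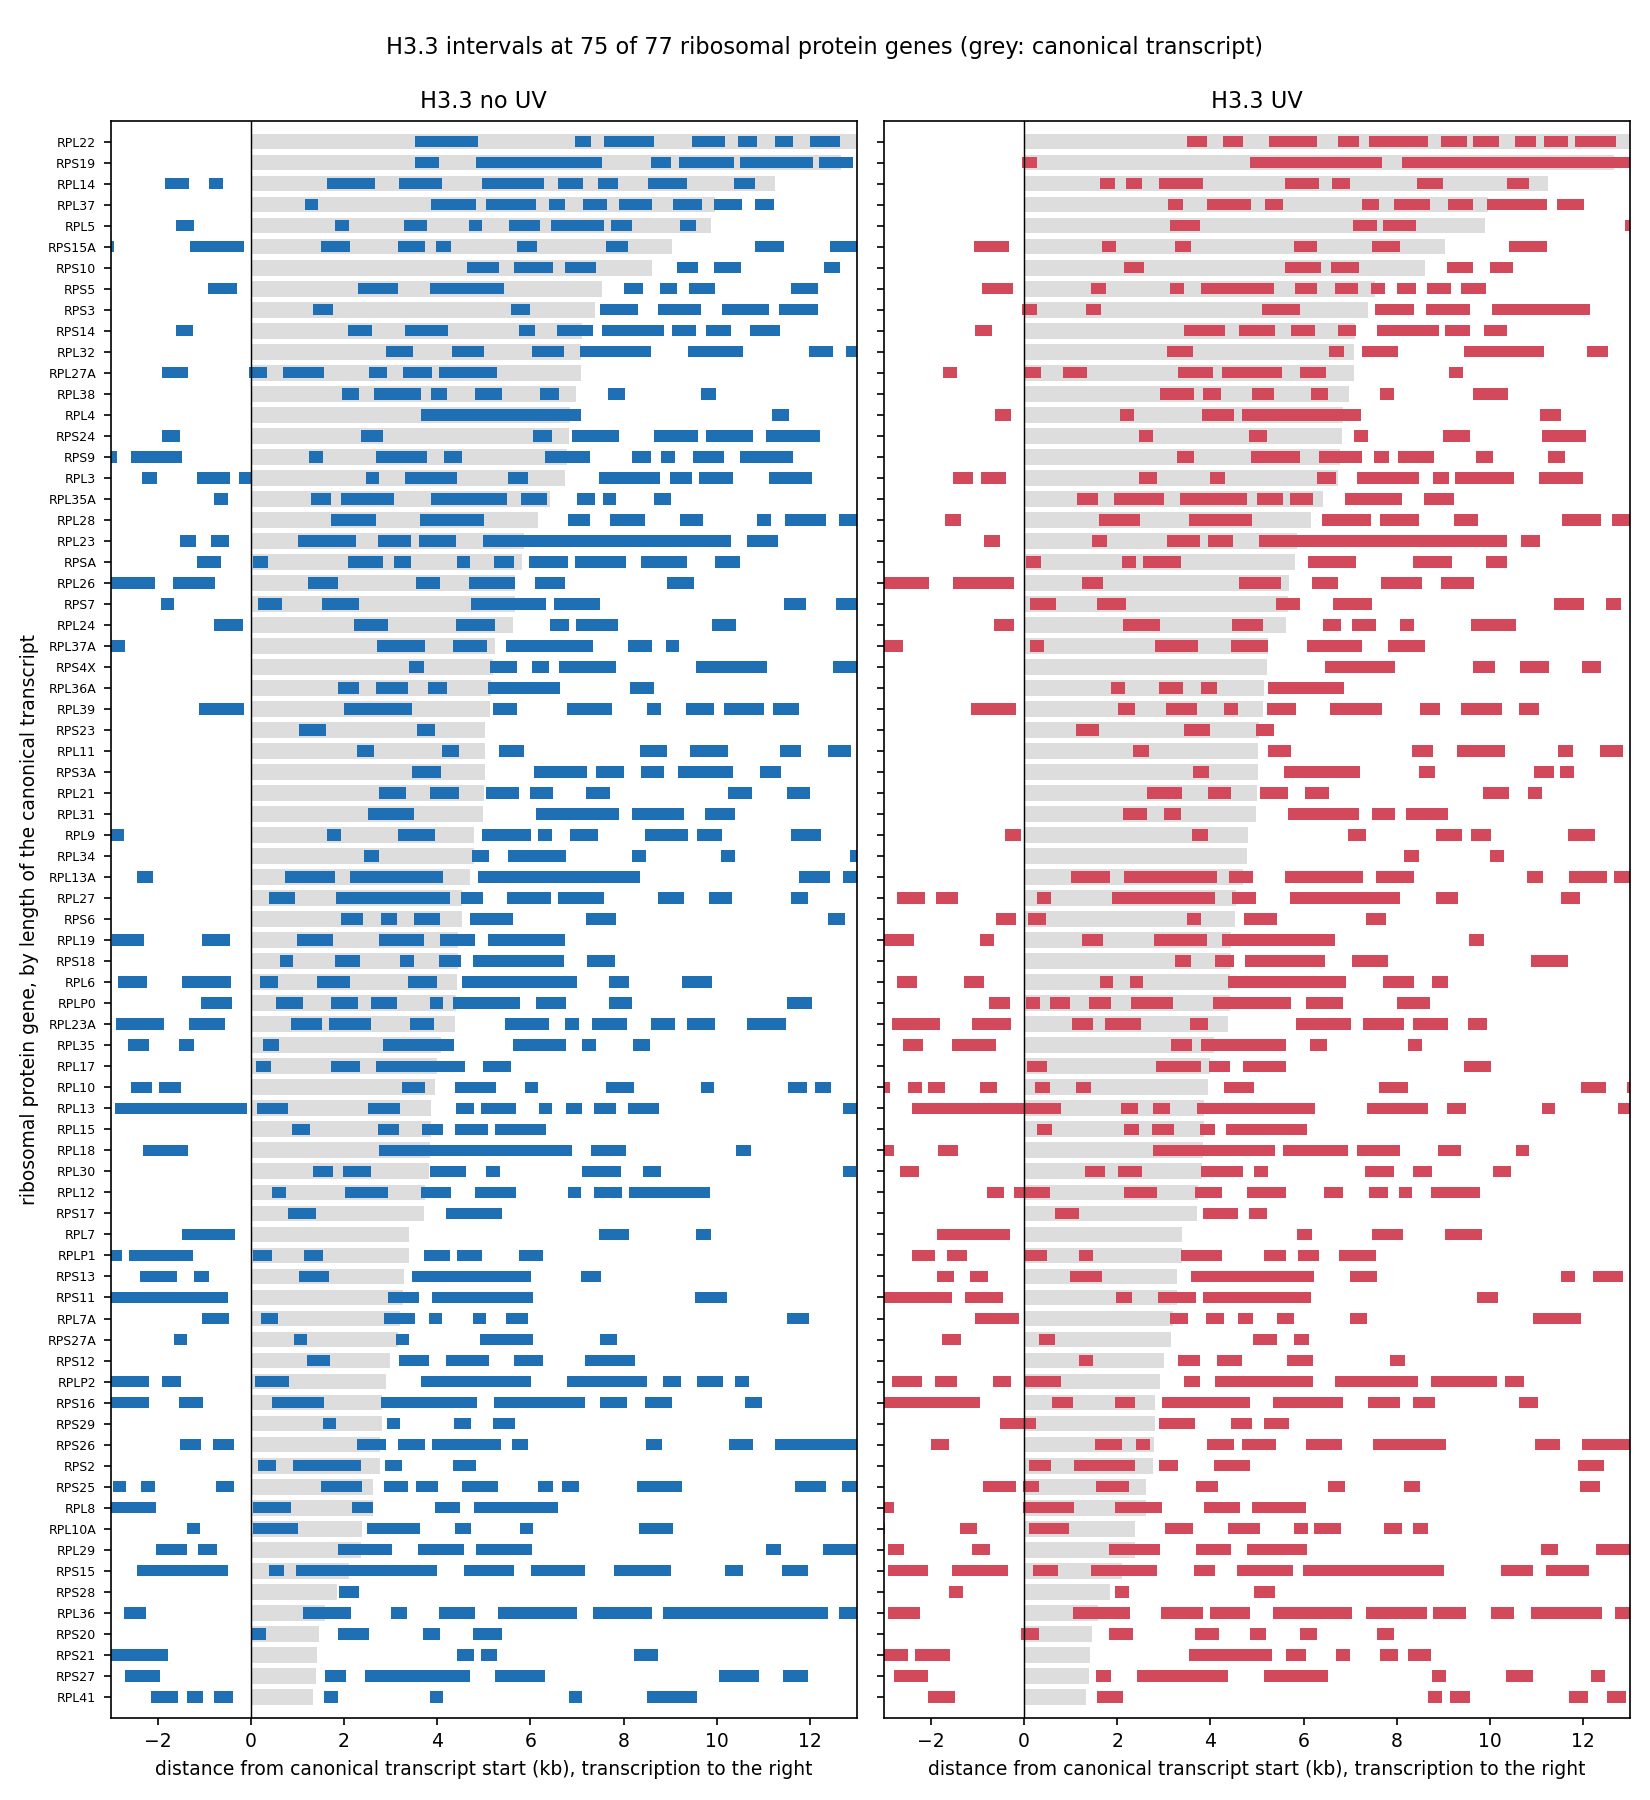
Distinct H3.3 intervals at 75 of the 77 ribosomal protein genes without UV (left, blue) and after UV (right, red), drawn to scale by distance from the canonical start (kb, transcription to the right), with the canonical transcript in grey and the genes ordered by its length. Few intervals touch the line at 0, and most genes have intervals in the transcript and beyond its end in both panels.

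Past the start the picture turned: H3.3 intervals covered the bodies of these genes densely and went on past their ends. In each list 73 of 77 genes had an interval in the gene body (94.8%, 87.2% to 98.6%), against 61.5% of all protein-coding genes without UV and 64% after UV. The 4 genes without one were the same in both lists: RPL41, RPS21, RPS27 and RPS28, whose canonical transcripts of 1335 to 1845 bp are among the shortest here. No gene gained a body interval, of the 4 that could (background 16.5%), and none of the 73 lost one (background 6.33%). Body intervals numbered 286 without UV, of which 222 overlapped an interval of the other list, and 275 after UV, of which 227 did. Those lying over 1 kb from every annotated start of their gene were found at 51 genes without UV and 54 after UV, against 49% and 47.1% of all protein-coding genes.

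The length of the genes bears on such counts, since protein-coding genes had a median length of 27470 bp and ribosomal protein genes of 5332 bp. Within the 3710 to 9912 bp range all 39 ribosomal protein genes had a body interval in each list, against 46.2% of protein-coding genes without UV and 52.2% after UV. Over 1 kb from every own start it was 27 of 39 and 28 of 39, against 25.6% and 27.1%. Intervals covered a median of 30.0% of the canonical transcript span without UV and 25.4% after UV in the ribosomal protein genes, against 0.968% and 1.13% in all protein-coding genes. RPS15 was the most densely covered without UV, with 68.1% of its 2100 bp in an interval and 57.4% after UV. RPL13A, whose protein also joins a complex that silences inflammatory mRNAs, was the most densely covered after UV, with 65.3% without UV and 66.7% after. RPS2 had 66.5% and 64.3%, and RPL8 49.2% and 66.1%.

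Most ribosomal protein genes also had H3.3 intervals just beyond the canonical end, a place where few other genes had one. In the 1 kb after the end, 65 of 77 genes had an interval without UV (84.4%, 74.4% to 91.7%), against 15.5% of all protein-coding genes. After UV it was 63 genes (81.8%, 71.4% to 89.7%), against 15.4%. With only those intervals that had no protein-coding TSS within 1 kb, 50 and 52 genes remained with one, against 11.3% and 10.6%. Among protein-coding genes of 3710 to 9912 bp the shares were 21.1% and 23.1%, and in the ribosomal protein genes of that length 32 of 39 in each list. The mitochondrial ribosomal protein genes had 29 of 78 and 26 of 78. This measure was chosen after the map of intervals had been seen.

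Past the end, the coverage at the distances listed here was highest at 2000 bp and lower farther out. At the end itself it was 37.7% of the 77 genes without UV and 40.3% after UV. It stood at 50.6% of the 77 genes at 1000 bp without UV and 44.2% after UV, at 53.2% in each list at 2000 bp, at 23.4% and 19.5% at 5000 bp and at 10.4% and 14.3% at 10000 bp. At 20000 bp it was 7.79% and 10.4%, and at 30000 bp 6.49% and 11.7%. The same distances, with the end itself, gave between 3.65% and 7.85% of all protein-coding genes. At 30000 bp the counts were 5 of 77 genes without UV and 9 of 77 after UV, against 4.28% and 4.52% of all genes. Counts this small do not show whether the ribosomal protein genes stayed above all genes that far out. The 65 genes without UV had a median of 613 of the 1000 bases covered and the 63 genes after UV 622, against 402.5 and 428 in all protein-coding genes with any. All 1000 bases were covered in both lists in RPL18, RPL23 and RPLP0. The strongest interval after the end ranked at a median percentile of 85.8 of its list without UV and 79.9 after UV in the ribosomal protein genes, against 64.9 and 65.5 in all protein-coding genes.

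In both conditions 59 genes had an interval past the end. A further 8 genes had none in either list: RPL14, RPL22, RPL23A, RPL27A, RPL5, RPL7, RPS15A and RPS21. Of the 12 genes without an interval there in the library without UV, 4 had one after UV (33.3%, 9.93% to 65.1%), against 5.13% of all protein-coding genes. RPL31, with a −log10 q of 16.8, RPS23, with 5.97, and RPS3A, with 7.89, were among these. Of the 65 genes with one in the library without UV, 6 had none after UV (9.23%, 3.46% to 19.02%), against 28.5% of all protein-coding genes. Those 6 were RPL34, RPL9, RPS25, RPS26, RPS27A and RPS4X, with a −log10 q of at most 18.6 (RPS26) and as low as 1.44 (RPS27A). Among the 59 genes with both, 32 had more covered bases after UV and 24 fewer, 54.2% and 40.7%, against 56.1% and 41.4% of all protein-coding genes, so the split was near the background. The genes of the gain and loss counts were named after their values were seen.

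**Figure D3:**
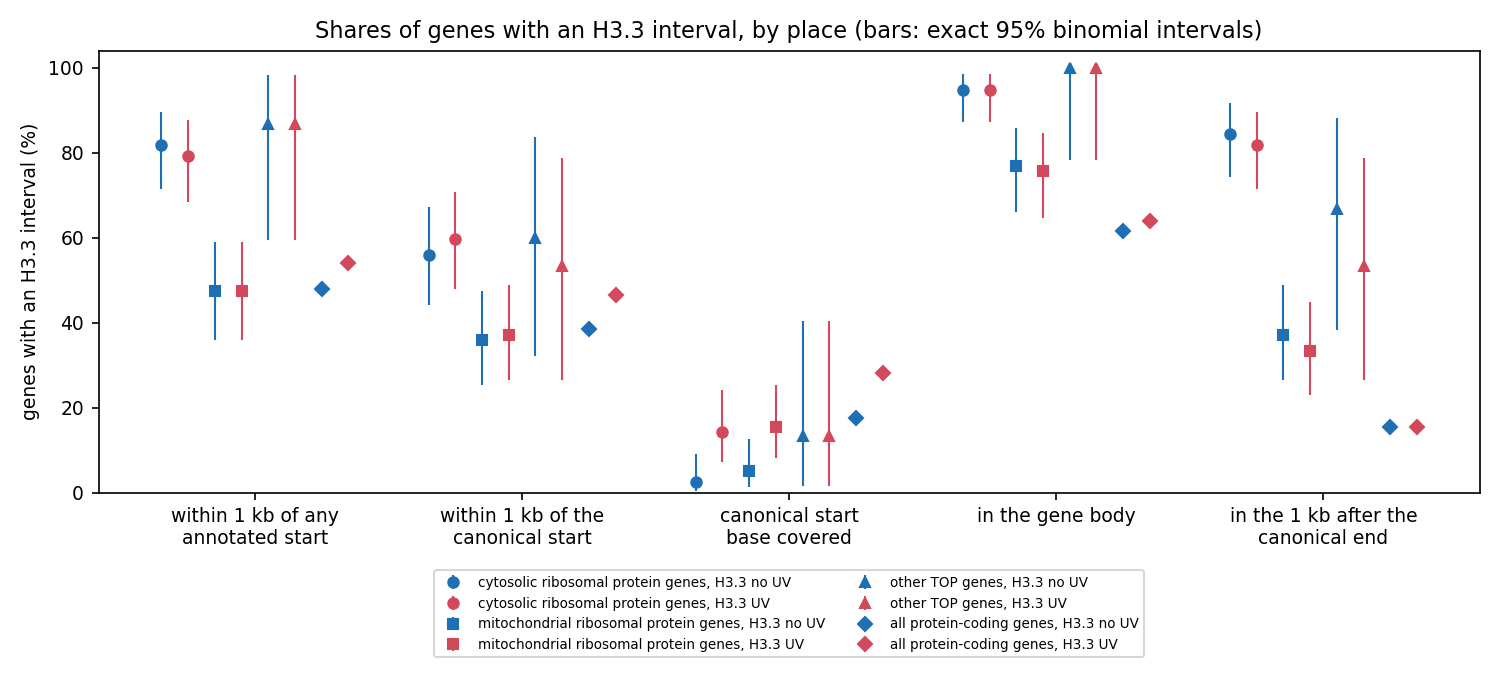
Percentage of genes with an H3.3 interval at 5 places of the gene, without UV (blue) and after UV (red), for the 77 cytosolic and 78 mitochondrial ribosomal protein genes, 15 other TOP genes and all protein-coding genes, with exact 95% binomial intervals as bars. The cytosolic genes stand highest relative to all genes in the 1 kb after the end (84.4% and 81.8% against 15.5% and 15.4%) and below them at the start base (2.60% and 14.3% against 17.6% and 28.2%).

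Gains and losses at the annotated starts were few in number, and in the main setting their shares were near those of all protein-coding genes. An interval within 1 kb of a TSS was found after UV only, at 3 genes of the 14 that had none without UV (21.4%), against 17.7% of all protein-coding genes. It was found without UV only, at 5 genes of the 63 that had one (7.94%), against 6.68%. The share with a gain depended on the limit for peaks: with peaks below a −log10 q of 5 left out it was 11 of 28 genes (39.3%), against 17.9% of all protein-coding genes, and at canonical starts only it was 9 of 34 (26.5%), against 17.4%. Within 2 kb of a TSS the share with a gain was 4 of 7 genes (57.1%), against 17.2%. With summits in place of intervals the share with a gain was 3 of 17 (17.65%), against 18.4%. In the main setting the genes with a gain were RPS19, a small-subunit protein whose loss on 1 allele causes Diamond-Blackfan anaemia, RPL37A and RPS28. RPS19 had a 322 bp interval at chr19:41860223-41860544 that covered the start shown above, with its summit 124 bp into the gene and a −log10 q of 7.59 (percentile 61.5 of its list). In the list without UV the nearest interval was 3001 bp from any start of RPS19. RPL37A had a 308 bp interval at chr2:216498967-216499274, with its summit 262 bp after the start in an intron or non-canonical exon and a −log10 q of 6.65. The RPS28 interval, at chr19:8319877-8320191 with a −log10 q of 6.85, lay 967 bp from the nearest RPS28 start and nearer to a start of NDUFA7, a subunit gene of respiratory complex I.

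The genes with a loss were RPL34, RPL41, RPS26, RPS4X and RPS9. RPL41, which encodes a very short basic protein, had an interval at chr12:56115260-56115608 and another at chr12:56115846-56116250, both before its start, with −log10 q values of 4.52 and 3.75. RPS26, which lies along the mRNA exit path of the small subunit, had intervals at chr12:56040402-56040854 and chr12:56041096-56041552 before its start, with −log10 q values of 6.14 and 4.41. RPS4X, the X-linked copy of the eS4 gene, had an interval at chrX:72273533-72273863 by an internal start (−log10 q 2.10) and another at chrX:72271545-72272105 at its 3′ side (1.44). RPL34 had an interval at chr4:108623002-108623323 with a −log10 q of 4.61, 959 bp from its nearest start. RPS9 had an interval at chr19:54202100-54202395 with a −log10 q of 2.73, 940 bp from its nearest start. The strongest of these, at RPS26, stood at percentile 60.5 of its list. After UV the nearest interval was at 1053 bp from a start for RPS26, 1418 bp for RPL41, 1940 bp for RPS4X, 2972 bp for RPS9 and 6695 bp for RPL34.

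The 11 genes with no interval within 1 kb of any start in either list were RPL11, RPL22, RPL28, RPL31, RPL32, RPL38, RPS10, RPS12, RPS21, RPS27 and RPS3A. RPL11, which with RPL5 and 5S rRNA forms the particle that binds MDM2 under ribosomal stress, is among them. RPL5 itself had such intervals in both lists. Except for RPS21 and RPS27, all of these genes had body intervals in both lists.

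The strength of the intervals near a start varied widely between the genes. The 144 TSS intervals without UV had a median width of 569.5 bp and a median fold enrichment of 5.00, and their −log10 q ran from 1.31 to 54.8 with a median at percentile 67.4 of all intervals in that list. The 138 after UV had a median width of 452 bp and a median fold enrichment of 5.24, and their −log10 q ran from 1.61 to 87.8 with a median at percentile 64.5. Of these intervals 56 without UV and 57 after UV lay within 1 kb of the canonical start, and 13 and 9 reached into the 1 kb after the canonical end. An overlapping interval was present in the other list for 107 of the 144 and 106 of the 138. Summits fell in canonical exons in 13 of the 144 and 14 of the 138, and 10 and 13 of the intervals were nearer to a TSS of another protein-coding gene.

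Without UV the 5 highest −log10 q values among TSS intervals belonged to RPS15 (54.8), RPL7 (52.8), RPL4 (50.4), RPL17 (47.0) and RPL18 (42.5). Apart from that of RPL7, these intervals reached into the 1 kb after the canonical end. The RPL4 interval, of 3434 bp at chr15:66497773-66501206, reached an annotated start of RPL4 and one of the neighbouring SNAPC5, and the RPL17 interval was nearest to C18orf32. After UV the order was RPS18 (87.8), RPS2 (73.3), RPL26 (67.9), RPL27A (59.5) and RPL4 (55.9). The RPS2 interval, at chr16:1964240-1964715 and 476 bp wide, had its summit in an exon 330 bp after the canonical start. RPL26 had its strongest interval before the start, at chr17:8383413-8384711. The RPS18 interval, at chr6:33276825-33278527, lay past the end of the gene and nearest to B3GALT4.

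Low values of a gene's strongest TSS interval without UV were those of RPL35 (1.31), RPS4X (2.10), RPS25 (2.24) and RPS9 (2.73). After UV they included those of RPL37 (2.75), RPS23 (3.45), RPL14 (3.46) and RPL27 (5.38). RPS25 was among the lowest without UV at percentile 11.7 and stood at percentile 82.2 after UV.

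**Figure D4:**
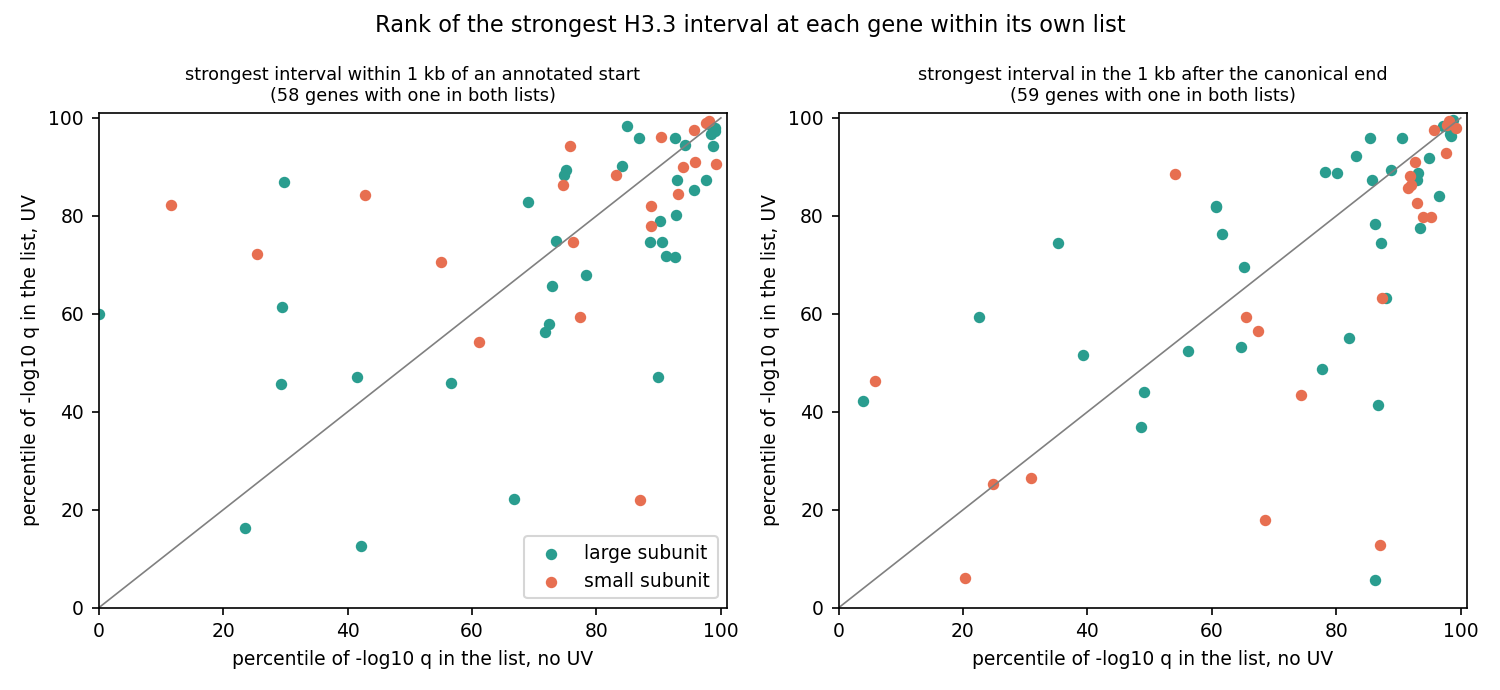
Percentile of the −log10 q of each gene's strongest H3.3 interval among all intervals of its own list, without UV (x axis) and after UV (y axis), for intervals within 1 kb of an annotated start (left, 58 genes) and in the 1 kb after the canonical end (right, 59 genes). Large-subunit genes are green and small-subunit genes orange; points crowd the upper right corner, and a few, such as RPS25 on the left, lie far from the grey line of equal rank.

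The strongest body intervals over 1 kb from every own start included several that overlapped between the lists. RPL28 had the highest −log10 q of all, 214.6 without UV and 191.4 after UV, in an interval at chr19:55400729-55402041 (without UV) that lay 14372 bp from its nearest annotated start, beyond its canonical transcript and nearest to a start of UBE2S. RPS3, a protein at the mRNA entry of the small subunit, followed with 70.1 and 114.6 at chr11:75409630-75410634, also past its canonical transcript. RPS23, a protein of the decoding centre, had an interval with a value of 71.9 after UV in an exon at chr5:82274357-82274925. RPL23 had the widest interval, 5315 bp in untreated cells and 5321 bp in irradiated cells, which ran across and past its end with values of 44.03 and 41.7. Other leading genes were RPL31 (44.3), RPL27A (43.7), RPL19 (30.9), RPS14 (26.2) and RPSA (24.98) without UV, and RPS15 (55.7), RPL13 (39.2) and RPL6 (26.1) after UV.

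Around the canonical start, fewer of these genes had more covered bases after UV than was the case over all genes. Of the 37 ribosomal protein genes with intervals within 1 kb of the canonical start in both lists, 22 had more bases covered after UV (59.5%), against 78.8% of all protein-coding genes with intervals in both, and 15 had fewer (40.5%), against 20.9%. The median difference, UV minus no UV, was 47 bases, against 138 bases in all protein-coding genes. The exact 95% intervals were 42.1% to 75.2% for the share with more and 24.8% to 57.9% for the share with fewer.

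Among these 37 genes the largest increases were those of RPL12 (from 318 to 1137 bases), RPS25 (391 to 1065), RPL26 (234 to 781), RPLP2 (736 to 1181) and RPS15 (836 to 1191). At RPL12 and RPS25 the intervals after UV included one on the start base itself. The largest decreases among them were those of RPL6 (976 to 151), RPSA (699 to 333), RPL3 (830 to 551), RPL27 (560 to 296) and RPL19 (573 to 314). RPSA is also known as the laminin receptor. The decrease at RPL3 included the interval on its start. Genes covered in 1 list only had differences of the same size. RPS6 went from 0 to 827 bases, RPS29 from 0 to 771 and RPL10 from 0 to 704, while RPS26 had 457 bases without UV, RPL41 405 and RPL14 314, each with 0 after UV.

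**Figure D5:**
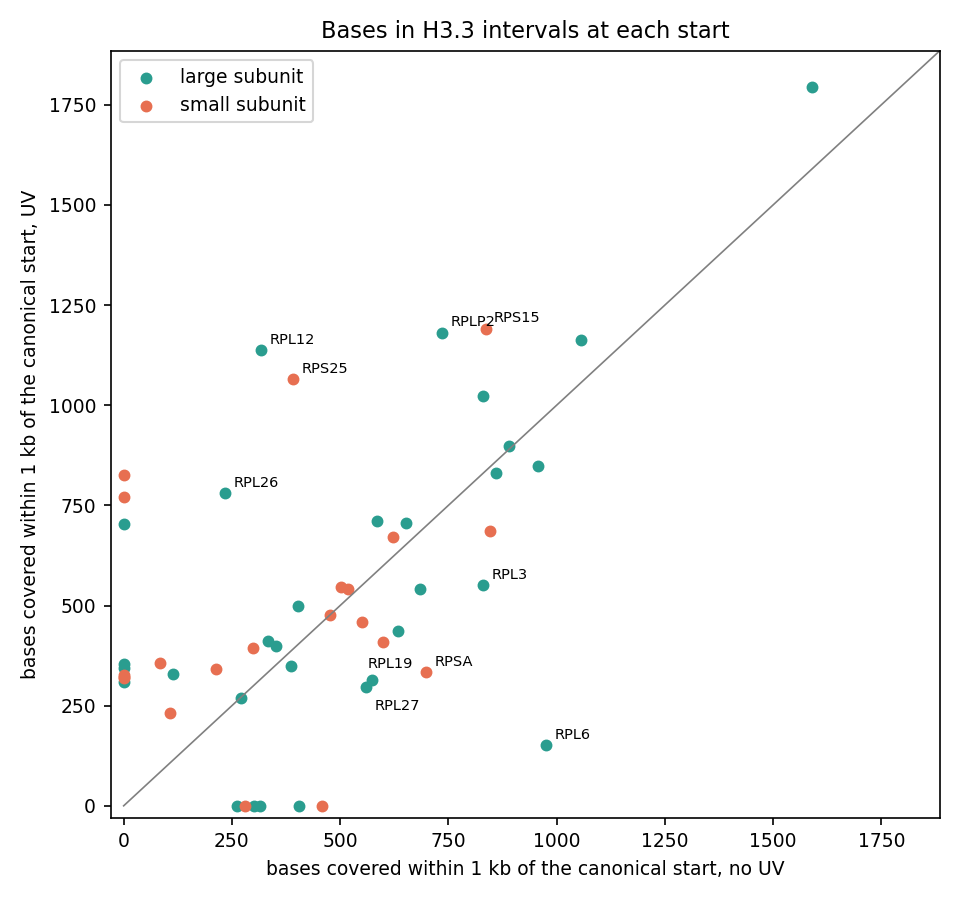
Bases covered by H3.3 intervals within 1 kb of the canonical start of each ribosomal protein gene, without UV (x axis) and after UV (y axis), for large-subunit (green) and small-subunit (orange) genes with intervals in at least 1 list. Of the 37 genes covered in both lists, the 5 farthest above and the 5 farthest below the grey line of equal coverage are named, and points on an axis are genes covered in 1 list only.

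The stalk genes and the X-linked genes differed among themselves. RPLP0 had 1056 bases covered without UV and 1162 after UV, and RPLP1 403 and 500. RPS27A, which encodes ubiquitin fused to a small-subunit protein, had 83 and 357. RPL10, a late-joining protein that completes the large subunit, had 0 bases covered without UV and 704 after UV, although other starts of RPL10 had intervals in both lists. RPL36A and RPS4X had 0 in both lists. RPL39, also X-linked and added here after its values were seen, had 859 and 832.

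The introns of these genes hold snoRNA genes, which guide the modification of ribosomal and spliceosomal RNA. Of 59 snoRNA genes inside ribosomal protein genes, 21 were overlapped by an interval without UV (35.6%, 23.6% to 49.1%) and 13 after UV (22.03%, 12.3% to 34.7%), against 26 of 284 (9.15%) and 20 of 284 (7.04%) inside other protein-coding genes. All of the 13 were among the 21. The shares in ribosomal protein genes were near the median share of their canonical transcript span in intervals, given above for each list. Several snoRNA genes share a host, and the exact intervals take no account of this. SNORD32A, SNORD33, SNORD34 and SNORD35A in RPL13A and SNORA10 and SNORA64 in RPS2 were covered in both lists. SNORA3A and SNORA3B in RPL27A and SNORA62 in RPSA were among the 8 covered without UV only. The start base was covered in 2 of the 28 snoRNA hosts without UV and in 6 after UV, and in 0 and 5 of the 49 other ribosomal protein genes.

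Related genes outside the group shared parts of the pattern. Of 15 other genes with a TOP start, mostly translation factors such as EEF1A1 and PABPC1, 13 had an interval within 1 kb of a TSS and 15 had one in the body in each list, and 10 without UV and 8 after UV had one in the 1 kb after the end. FAU, whose product is cleaved to give a small-subunit protein, had a TSS interval only without UV. Of 8 paralogues with an L suffix, RPL22L1, RPL26L1, RPL7L1 and RPS27L had a TSS interval in both lists, RPL36AL only after UV, and RPL39L, RPL10L and RPL3L in neither. The mitochondrial ribosomal protein genes had a TSS interval at 37 of 78 in each list, against 48% and 54% of all protein-coding genes. They had 7 gains of 41 genes (17.1%), against 17.7%, and 7 losses of 37 (18.9%), against 6.68%.

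The exons of ribosomal protein genes have many copies in the genome, and how reads that map to several places were treated is not given in the sources used here. Intervals overlapped 36 of 1571 annotated processed pseudogenes of these genes without UV (2.29%) and 35 after UV (2.23%), against 2.57% and 2.82% of other processed pseudogenes. Summits of body intervals lay in canonical exons in 44 of 286 cases without UV and 44 of 275 after UV, and canonical exons make up 13.5% of the annotated spans. The study also made RNA-seq and RNA polymerase II ChIP-seq libraries from this line with and without UV-C. Those data were not used here, so how the coverage relates to transcription of each gene was not tested.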

How the data were processed

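H3.3 ChIP-seq in MRC5 cells was analysed from 1 library without UV and 1 library 3 h after 10 J/m2 UV-C, grouped by the sample labels. Input libraries were not analysed here. The submitters' processing notes name bcl2fastq 2.17, Trimmomatic 3.36, BWA 0.7.12, MACS 1.4.2 and hg38, and the methods add removal of duplicates with Biobambam2. The MACS control and threshold are not given in the sources used here, and the lowest −log10 q was 1.302 in each list. In the peak lists deposited by the authors each row holds a score, a fold enrichment (a linear ratio), a −log10 p and a −log10 q for a summit. These are set within a library, and a shallower library yields fewer peaks, which bears on every interval found in 1 list only.

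Rows sharing an interval were counted once, with the strongest summit. All chromosome ends were checked against hg38. Genes, TSSs, canonical transcripts, snoRNA genes and pseudogenes were those of GENCODE release 44. An interval was at a TSS when it came within 1 kb of any annotated TSS of the gene, in the body when it overlapped the gene by at least 1 bp, and gained or lost when present in the UV list only or the other list only. Shares carry exact Clopper-Pearson 95% intervals. No test was made with 1 library per condition.

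The members and lists were chosen with earlier results of these data known. Named genes are those with a gained, lost or missing TSS interval, the 5 strongest and 5 weakest TSS intervals of each list, the 5 largest increases and decreases of covered bases, the strongest body intervals (at most 12 genes), and RPLP0, RPLP1, RPLP2, RPSA, RPS27A, RPS4X, RPL36A and RPL10. Some genes that this rule names are not reported here. Coverage of the start base and of the 1 kb after the end, and the genes and snoRNA genes named for them, were chosen after the data were seen. Alternatives were windows of 500 bp and 2 kb, canonical starts only, summits, a −log10 q of at least 3 or 5, lists of equal length, the nearest gene only and an overlap of 50%. The procedures were tested on simulated lists. The scripts ran in Python 3.11.15 with pandas 2.3.3 and numpy 2.4.6, the exact intervals came from scipy 1.17.1 and the plots from matplotlib 3.10.9.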

Additional observations from a re-analysis of the deposited data

How the results depend on the processing

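Of 102 alternative values for 21 results, 82 kept their direction or stayed within 1.5 times the main value. With peaks below a −log10 q of 3 left out, the median distance of the nearest summit from the canonical start without UV was −325 bp, and at a limit of 5 it was −106 bp, in place of +159.5 bp. The shares of all protein-coding genes follow each count. Gained TSS intervals, at 3 of 14 genes in the report, were found at 5 of 18 with a limit of 3 (17.9%) and 11 of 28 with a limit of 5 (17.9%). They were found at 5 of 21 within 500 bp (18.1%), 4 of 7 within 2 kb (17.2%) and 9 of 34 at canonical starts only (17.4%). Lists of equal length gave 5 of 17 (19.2%), the nearest gene only 3 of 16 (17.3%) and summits 3 of 17 (18.4%). Lost TSS intervals were found at 3 of 49 genes with a limit of 5 (6.01%) and at 3 of 70 within 2 kb (6.49%), in place of 5 of 63. Canonical starts only left 37 genes with an interval in both lists (35.9%), in place of 58. Gained body intervals, at 0 of 4 genes in the report, were found at 2 of 6 with a limit of 3 (17.4%), 3 of 12 with a limit of 5 (18.5%), 1 of 5 with lists of equal length (18.7%) and 5 of 26 over 1 kb from every own start (10.8%). Lost body intervals, at 0 of 73, were found at 1 of 71 with a limit of 3 (6.404%) and 2 of 51 over 1 kb from every own start (15.2%). Gained intervals after the end were found at 9 of 26 genes with a limit of 5 (4.04%) and 7 of 27 without those near a protein-coding TSS (3.95%), in place of 4 of 12. The start base was covered without UV in 1 gene with a limit of 3 and in 1 with a limit of 5, in place of 2. The cause of these differences was not tested. Alternatives for the start base and the end were chosen after seeing the data.

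With 1 library of pooled DNA per condition, leaving out a replicate was not possible, and differences between the conditions cannot be told apart from differences between 2 libraries. No paired analysis was possible because the H3.3 samples have no replicates. Without read numbers, a missing interval says that H3.3 was not detected at an unknown depth, not that it was absent.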
